A study of Homo sapiens with 6 samples.

Results

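Transcripts of 9 complement genes were followed in cultured human podocytes: the components C3, C1R, C1S, CFB and CFI, the soluble inhibitor SERPING1, and the cell surface regulators CD46, CD55 and CD59. They were taken by symbol from the 34644 gene names of the deposited tables, with counts summed over all listings that share a name, and all 9 were present. The 3 PRDM16 libraries came from the podocyte line HPC (genotype labelled WT) kept in high glucose and given a lentivirus that overexpresses the zinc finger transcription factor PRDM16. The 3 NC libraries came from the same line in high glucose with a negative control lentivirus. All titles give 24 h. The labels give neither the glucose concentration nor the promoter that drives PRDM16. Both groups were in high glucose, so its own effect cannot be read from them. Whether replicate libraries are independent cultures is not stated; the p-values below therefore rest on a variation between samples that could be purely technical.

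Complement is a cascade of plasma proteases that tags surfaces for removal and can end in a lytic pore. C1r and C1s are the proteases of the C1 complex that opens the classical pathway. Factor B, encoded by CFB, joins C3b in the convertase of the alternative pathway, and C3 is the point where the pathways meet. Host cells protect themselves with CD55, which speeds the decay of convertases, CD46, a cofactor for the cleavage of C3b and C4b by factor I (CFI), and CD59, which blocks assembly of the pore, while the C1 inhibitor (SERPING1) acts in the fluid phase. The liver is the main source of the plasma proteins, but kidney epithelia, podocytes included, also make several of them, and podocytes face plasma proteins across the filter.

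The libraries held 20147135 to 41280350 gene counts with PRDM16 and 20969179 to 27655378 with NC. PRDM16 itself had 11, 18 and 24 counts in the PRDM16 libraries and 0 in each NC library. These counts are low for an overexpressed gene: CFI, near the detection limit, had 9, 11 and 33 in the same libraries. The size of the PRDM16 rise is therefore poorly measured here. Among 10 podocyte markers, PODXL, CD2AP, SYNPO, KIRREL1 and PLA2R1 were detected well enough to be tested, while NPHS1, WT1 and PTPRO had at most 4 counts in any library. The podocyte list summed to 616 to 634 CPM (counts scaled to library depth with TMM factors) with PRDM16 and 649 to 718 CPM with NC. The groups overlapped for each of the 5 tested, with fold changes negative for 4 and positive for SYNPO. CD2AP averaged 162 CPM with PRDM16 and 206 CPM with NC. The 5 markers of parietal epithelium of the glomerulus (KRT8, KRT18, CLDN1, PAX8 and PAX2) were all tested. They summed higher than the podocyte list, to 3003 to 3176 CPM with PRDM16 and 2640 to 2938 CPM with NC. Most of this sum was KRT8 and KRT18. The PRDM16 libraries all lay above the NC libraries for these 2 of the 5, as they did for 12.4% of all genes tested. For the others the groups overlapped, with log2 fold changes (PRDM16 over NC) of 0.06 for PAX8, -0.13 for CLDN1 and -0.0035 for PAX2. The 7 mesangial and fibroblast markers, most of it COL1A1, summed to 325 to 366 CPM with PRDM16 and 320 to 370 CPM with NC, with PDGFRA and ITGA8 at 0 or 1 count. Endothelial and tubule markers summed to under 4 CPM in every library. ALB, a hepatocyte marker, had 0 to 5 counts per library and PTPRC, a marker of leukocytes, 9 to 22. The summed level of 6 hepatocyte markers, nearly all of it SERPINA1, was 36.9 to 43.6 CPM with PRDM16 and 33.4 to 45.6 CPM with NC. The summed level of 8 leukocyte markers, nearly all of it CD68, a lysosomal protein, was 179 to 182 CPM with PRDM16 and 135 to 163 CPM with NC; CD3E was at 0. The part of these markers in the results was not tested. In bulk RNA, fewer cells of a type and less RNA per cell cannot be told apart.

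None of the 9 complement genes passed the test between the lentiviruses. By the quasi-likelihood test of edgeR with Benjamini-Hochberg adjustment, 0 of the 9 passed an adjusted p of 0.05, against 18 of the 15053 genes tested (0.120%; 0.0930% higher and 0.0266% lower with PRDM16). At an unadjusted p under 0.05 there were again 0 of 9, where 2540 genes (16.9%) of all tested reached it, 9.80% higher and 7.08% lower. DESeq2 and limma-voom also called 0 of 9, with 0 at an unadjusted p under 0.05 in each. Of all 15053 genes, DESeq2 called 37 and had 2278 under 0.05 unadjusted. For limma-voom these counts were 4 and 2146. The unadjusted counts move with single libraries: without NC library 1, 4272 of 15517 genes and 2 of the 9 (CD46, lower, and C1R, higher with PRDM16) were under 0.05 in edgeR, and without NC library 2, 1139 of 15094 genes and 0 of the 9. With the trend of fold changes along gene length and GC content removed, 989 of 15053 genes and 0 of the 9 were. The PRDM16 and NC libraries did not separate in CPM for any of the 9, whereas they did so for 21.1% of the genes tested (12.4% with PRDM16 above, 8.70% with PRDM16 below). The log2 fold changes were positive for 3 and negative for 6, with a median of -0.19, beside -0.02 over all genes tested. The median size was 0.19 for the 9 genes and 0.18 for all genes.

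**Figure D1:**
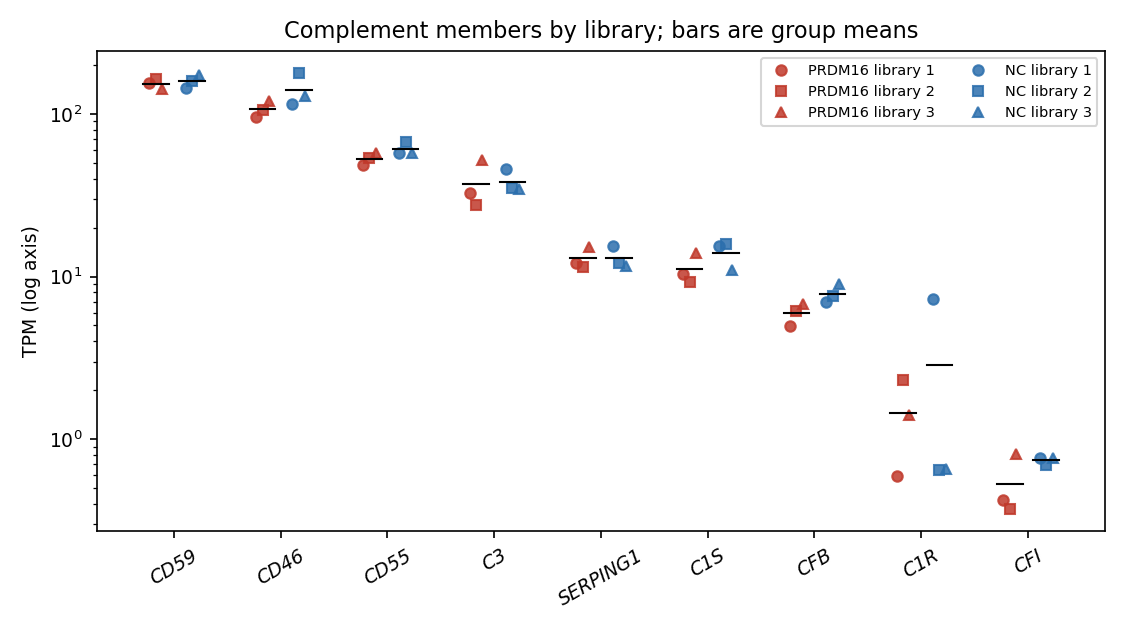
Level of each complement gene in TPM (deposited values, log axis) in the 3 PRDM16 libraries (red) and the 3 NC libraries (blue), with bars for group means and genes ordered by their mean over all 6 libraries. CD46 is at 95.2 TPM or more in every library and CFI at 0.805 TPM or less, while C1R is spread from 0.592 to 7.32 TPM.

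The transcripts of the surface regulators were more abundant than those of the components, although CD55 and C3 overlapped in range. Per length, in TPM (the authors' values, scaled for gene length and depth), CD59 stood highest with 142 to 173 over the 6 libraries, followed by CD46 with 95.2 to 180 and CD55 with 48.6 to 67.4. C3 came next with 27.5 to 51.9 TPM. SERPING1 (11.5 to 15.5 TPM) and C1S (9.20 to 15.8) were close to the median tested gene at 12.7 TPM, and CFB (4.95 to 9.05), C1R (0.592 to 7.32) and CFI (0.369 to 0.805) lay lower. Of the neighbours in this order, CD46 and CD55, C3 and SERPING1, and C1S and CFB did not overlap in range, and CD55 exceeded C3 in all 6 libraries although their ranges overlapped. CD59 exceeded CD46 in 5 of 6 libraries, the exception being NC library 2. SERPING1 exceeded C1S in 5 of 6, CFB exceeded C1R in 5 of 6 and C1R exceeded CFI in 4 of 6, all with overlapping ranges, so their order was not the same in every library. CFB and C1R overlapped only through NC library 1, at 6.97 and 7.32 TPM.

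The 3 surface regulators summed to 299, 322 and 319 TPM in the PRDM16 libraries and 318, 408 and 359 TPM in the NC libraries. This was 82.0 ± 3.61% of the TPM of all 9 genes with PRDM16 and 82.3 ± 4.07% with NC (SD, n = 3). The ratio of the regulators to C3 was 9.18, 11.7 and 6.16 with PRDM16, against 6.96, 11.7 and 10.5 with NC, so the groups overlapped. The exact two-sided permutation test gave p = 0.7 (n = 3 each), but with 3 against 3 it cannot go below 0.1 and so cannot decide whether the ratio differs.

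The sequence before the transcription start is shown for the 3 abundant surface regulators and, beside them, for the inducible component CFB. RefSeq promoters (GRCh38.p14) were found for 6 of the 9 genes. The 250 bases upstream of the start nearest to the deposited gene edge are shown for CFB (chr6:31945845-31946094, plus strand), CD46 (chr1:207751788-207752037, plus strand), CD55 (chr1:207321428-207321677, plus strand) and CD59 (chr11:33736480-33736729, minus strand), with capitals marking matches on either strand to the motifs named after them.
CFB: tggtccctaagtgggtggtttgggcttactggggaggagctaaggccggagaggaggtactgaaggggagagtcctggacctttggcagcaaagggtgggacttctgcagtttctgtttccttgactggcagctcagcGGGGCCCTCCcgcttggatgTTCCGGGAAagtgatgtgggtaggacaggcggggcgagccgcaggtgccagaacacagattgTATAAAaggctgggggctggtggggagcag
CD46: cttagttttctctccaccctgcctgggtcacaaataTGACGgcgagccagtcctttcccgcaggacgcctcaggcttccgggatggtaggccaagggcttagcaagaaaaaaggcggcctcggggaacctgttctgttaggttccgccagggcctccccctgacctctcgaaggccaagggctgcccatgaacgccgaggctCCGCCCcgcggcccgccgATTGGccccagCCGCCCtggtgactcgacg
CD55: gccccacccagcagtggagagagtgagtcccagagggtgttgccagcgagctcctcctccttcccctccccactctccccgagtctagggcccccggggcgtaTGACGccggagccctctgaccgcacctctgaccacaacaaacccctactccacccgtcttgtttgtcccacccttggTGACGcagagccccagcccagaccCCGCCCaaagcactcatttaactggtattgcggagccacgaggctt
CD59: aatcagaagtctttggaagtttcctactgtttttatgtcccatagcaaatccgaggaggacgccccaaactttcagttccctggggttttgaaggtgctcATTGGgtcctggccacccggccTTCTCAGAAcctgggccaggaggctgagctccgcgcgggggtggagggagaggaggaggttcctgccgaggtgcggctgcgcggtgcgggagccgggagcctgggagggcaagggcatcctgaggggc

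The motifs searched on both strands were the GC box GGGCGG, the CRE core TGACG, the CCAAT box CCAAT, the TATA element TATAAA, the STAT element TTCNNNGAA and the NF-kappaB element, and no matches shown overlapped. CFB held an NF-kappaB match, a STAT match and a TATA match, which 6.88%, 6.57% and 10.7% of the 35116 RefSeq promoters hold in a window of the same length. CD46 held 2 GC boxes, a CRE core and a CCAAT box, and CD55 held 1 GC box and 2 CRE cores, where 42.6%, 21.2% and 32.0% of promoters hold a GC box, a CRE core and a CCAAT box. CD59 held a STAT match and a CCAAT box and no GC box of these letters. In the same window C1R had 1 CRE core and CFI 1 CCAAT box, with no other match. A match is a run of letters and not a measured binding site.

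**Figure D2:**
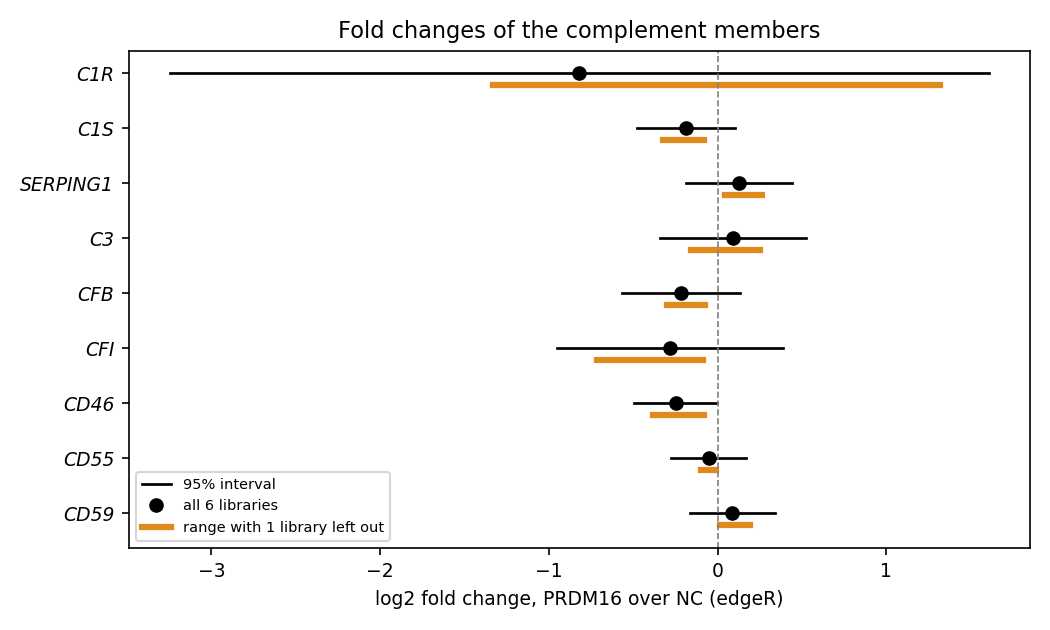
Log2 fold change of each complement gene, PRDM16 over NC, from edgeR on all 6 libraries (black points) with approximate 95% intervals (black lines), and the range of values when 1 library is left out (orange bars). The intervals use a normal multiplier and are narrower than the edgeR test would give. The C1R interval runs from -3.25 to 1.61, while those of CD55 and CD59 run from -0.28 to 0.17 and from -0.16 to 0.34.

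Among the surface regulators, CD46 had the smallest p of the 9 genes. CD46 (chromosome 1 at 207752038 to 207795516, hg38) was at 188, 202 and 212 CPM in the PRDM16 libraries, against 197, 287 and 229 CPM in the NC libraries. NC library 2 was the highest of all, and the lowest NC library lay within the range of the PRDM16 group. The log2 fold change was -0.25 ± 0.13 (SE; edgeR adjusted p = 0.302). Without NC library 1 it was -0.38 (edgeR adjusted p = 0.101), without NC library 2 it was -0.08, and with the trend of fold changes along gene length and GC content removed it was -0.03. Its unadjusted edgeR p was under 0.05 without NC library 1, without PRDM16 library 3 (-0.29), with plain library totals (-0.32) and with no count filter (-0.25). It was not in the other settings tried. CD46 transcripts have a GC content of 37.9%.

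CD55 (chromosome 1 at 207321674 to 207360966) encodes decay accelerating factor and had the smallest spread of the 9 genes in TMM-scaled CPM, though not in the authors' TPM, where its highest library stood 1.39-fold above its lowest, against 1.22-fold for CD59 and 1.34-fold for SERPING1. It had 66.4, 70.5 and 69.7 CPM with PRDM16, against 68.4, 74.8 and 71.0 CPM with NC. In CPM the highest library stood 1.13-fold above the lowest, and the fold change was -0.05 ± 0.11 (edgeR adjusted p = 0.811), with a 95% interval of -0.28 to 0.17. Its coefficient of variation was lower than that of all but 9.41% of the tested genes within the PRDM16 group and all but 5.65% within the NC group.

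CD59 (chromosome 11 at 33703010 to 33736479, minus strand) encodes protectin, which like CD55 is held in the membrane by a glycosylphosphatidylinositol (GPI) anchor. Its level was 506, 516 and 412 CPM with PRDM16, against 412, 425 and 512 CPM with NC. PRDM16 library 3 matched the lower NC libraries and NC library 3 matched the higher PRDM16 libraries, so the groups overlapped fully. The fold change was 0.09 ± 0.13 (edgeR adjusted p = 0.711, 95% interval -0.16 to 0.34). It was 0.02 without NC library 1 and 0.19 without NC library 3. CD59 shares 17 exon bases with C11orf91, which had 4 to 15 counts per library.

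C3 (chromosome 19 at 6677704 to 6720650, minus strand), the most abundant component, varied more within the PRDM16 group than between the groups. It was at 68.8, 56.2 and 97.6 CPM with PRDM16, against 83.9, 59.8 and 65.7 CPM with NC. PRDM16 library 3 was the highest and PRDM16 library 2 the lowest of the 6. The mean was 74.2 ± 21.2 CPM with PRDM16 and 69.8 ± 12.5 CPM with NC (SD over 3 libraries each), a log2 fold change of 0.09 ± 0.22 (SE) with an adjusted p of 0.838 in edgeR. Without PRDM16 library 3 the fold change was -0.16, and without PRDM16 library 2 it was 0.25.

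Of the other components, CFB encodes factor B of the alternative pathway, and CFI encodes factor I, the protease that cleaves C3b and C4b. CFB had 80, 134 and 215 counts with PRDM16, against 113, 147 and 137 with NC, or 4.16, 4.81 and 5.16 CPM against 4.93, 5.05 and 6.57 CPM. The PRDM16 range lay mostly below the NC range and overlapped it in PRDM16 library 3, with a fold change of -0.22 ± 0.18 (edgeR adjusted p = 0.487). CFB lies in the major histocompatibility region and was listed at 7 places, on chromosome 6 at 31946095 to 31952084 and on 6 alternate haplotypes. The chromosome listing held only 7.44% to 13.8% of its counts in the PRDM16 libraries and 7.97% to 12.2% in the NC libraries, and 1 haplotype listing held 54.4% to 77.6% in the PRDM16 libraries and 70.8% to 81.0% in the NC libraries. Tested alone, that haplotype listing had a fold change of -0.46 ± 0.21 (edgeR adjusted p = 0.303). Its unadjusted edgeR p was 0.036, in a fit where 2459 of 15381 listings were under 0.05. CFI (chromosome 4 at 109730982 to 109802040, minus strand) was near the detection limit, with 9, 11 and 33 counts with PRDM16, against 17, 18 and 16 with NC. Scaled for depth these were 0.468, 0.395 and 0.792 CPM and 0.741, 0.618 and 0.767 CPM, so PRDM16 library 3 matched the NC libraries and the other two lay below them. The fold change of CFI was -0.28 ± 0.34 (edgeR adjusted p = 0.656), and -0.72 without PRDM16 library 3.

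In the authors' TPM, which are not adjusted by TMM factors, all PRDM16 libraries lay below all NC libraries for 2 of the 9 genes, CFB (4.95, 6.15 and 6.76 TPM against 6.97, 7.57 and 9.05 TPM) and CD55 (48.6, 53.3 and 57.2 TPM against 57.5, 67.4 and 57.4 TPM). The same held for 17.5% of all genes tested, 4.58% lay the other way, and for none of the 9 did the PRDM16 libraries all lie above.

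C1R and C1S, which lie beside each other on chromosome 12 and encode partner proteases, behaved differently across the libraries. C1S (7060718 to 7071032) was at 12.3, 10.5 and 14.7 CPM with PRDM16, against 15.9, 15.1 and 11.7 CPM with NC, overlapping groups with a fold change of -0.19 ± 0.15 (edgeR adjusted p = 0.475), which was -0.33 without PRDM16 library 3 and -0.08 without PRDM16 library 2. C1R (7080219 to 7092445, minus strand) had 12, 66 and 55 counts with PRDM16, against 154, 16 and 13 with NC. That is 0.623, 2.37 and 1.32 CPM against 6.72, 0.549 and 0.623 CPM, a 12.2-fold spread, where the spread of C1S was 1.51-fold. NC library 1 stood far above the other NC libraries and set the sign of the fold change, which was -0.82 ± 1.24 (edgeR adjusted p = 0.743) and 1.32 without it (edgeR adjusted p = 0.147 over the genes of that fit). The C1S to C1R ratio in TPM was 17.5, 3.96 and 9.92 with PRDM16, against 2.11, 24.6 and 16.7 with NC (exact two-sided permutation p = 1, n = 3 each, with the same lower limit of 0.1).

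**Figure D3:**
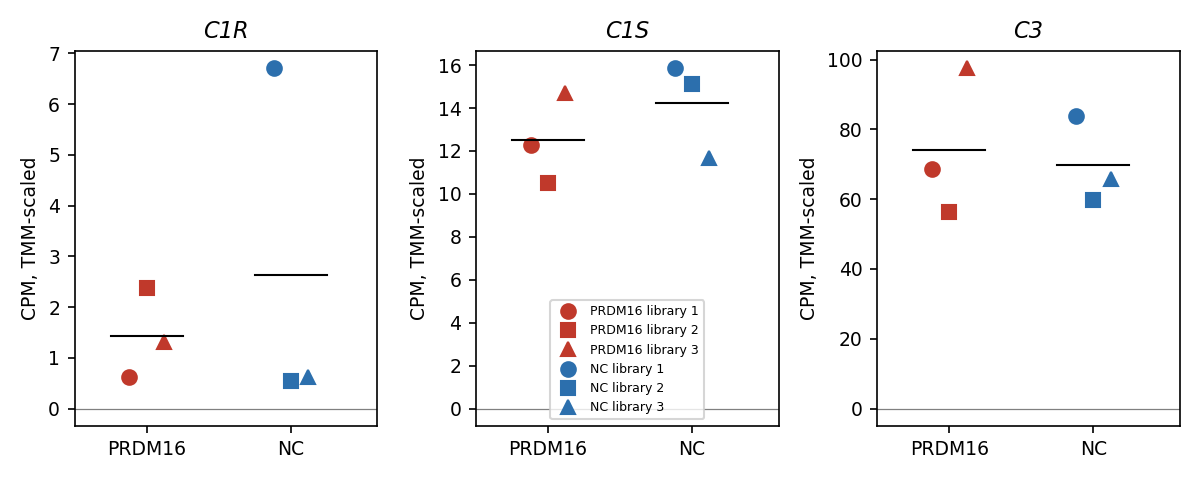
CPM of C1R, C1S and C3 in each library, PRDM16 (red) left of NC (blue), with marker shapes for library numbers and bars for group means. C1R reaches 6.72 CPM in NC library 1 and 0.549 CPM in NC library 2, while C1S stays between 10.5 and 15.9 CPM.

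C1R is listed at 2 places in the files, on chromosome 12 and on a scaffold, and the scaffold listing held 1 count in 1 library and 0 in the others. The sources used here do not state how a read matching the chromosome and the scaffold was placed, so the C1R count is uncertain. A wide spread went with such listings, and its part in the C1R values was not tested: of 570 tested names listed at several places with a mean of at least 1 CPM, 232 (40.7%) had a highest library at least 3-fold above the lowest, against 43 of 12750 names listed once (0.337%). CFB, although listed at 7 places, had a summed spread of 1.58-fold.

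SERPING1 (chromosome 11 at 57597685 to 57614848), the inhibitor of C1r and C1s, was at 9.09, 8.40 and 10.3 CPM with PRDM16, against 10.2, 7.41 and 7.91 CPM with NC. The highest values of the groups were alike, and the fold change was 0.13 ± 0.16 (edgeR adjusted p = 0.662, 95% interval -0.18 to 0.44). It was 0.26 without NC library 1 and 0.04 without PRDM16 library 3.

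Most other complement genes lay below the count filter in these cells. Of 56 other complement genes, chosen by role, 21 passed the filter on low counts and 35 did not, none of which exceeded 23 counts in a library. There were 10 at 0 in all libraries, among them the 3 chains of C1q, the recognition part of C1, and C9, which forms the pore. Per library a count of 0 allows a level of up to 0.0727 to 0.149 CPM. C2 had 2 to 23 counts per library, and C6, C8A and C8B had at most 2. edgeR, DESeq2 and limma-voom each called 0 of the 21. Their fold changes were positive for 9 and negative for 12, with a median of -0.08. An unadjusted p under 0.05 was found for 2 (9.52%) in edgeR, 0 in DESeq2 and 2 in limma-voom. Over all 15053 genes these counts were 2540 (16.9%), 2278 and 2146.

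**Figure D4:**
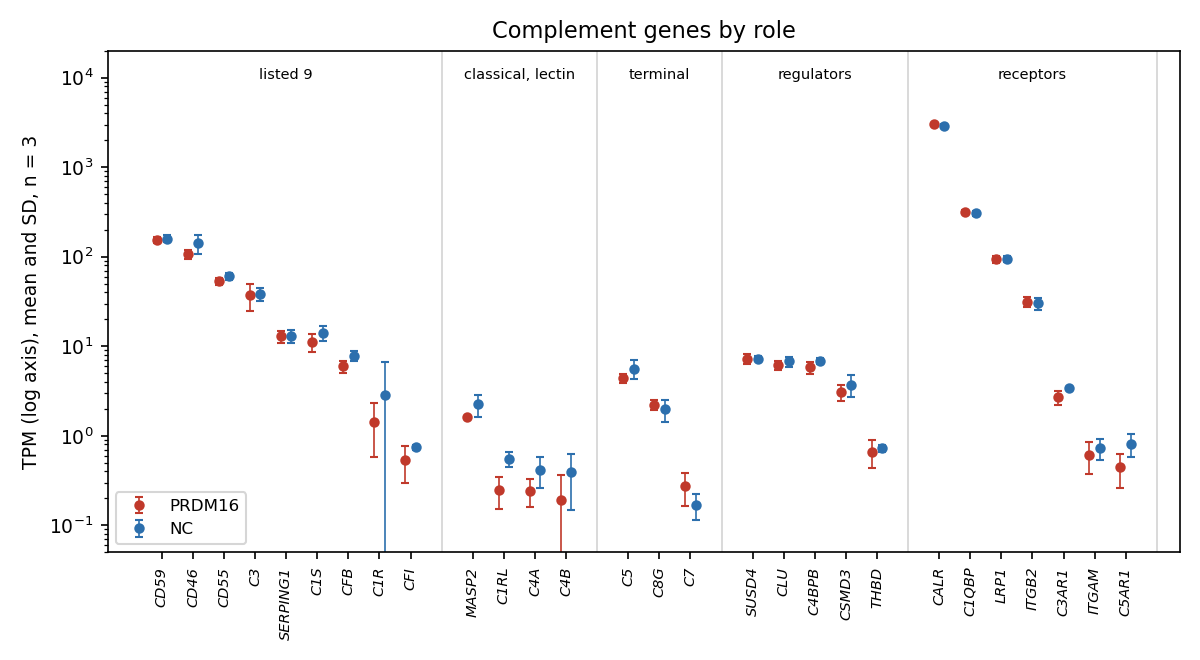
Mean level in TPM (log axis) with SD (n = 3) of the 9 complement genes and of the other classical, lectin, terminal, regulator and receptor genes that passed the count filter, PRDM16 (red) left of NC (blue), grouped by role; a line reaching the lower edge is an SD larger than the level shown. The means of the groups lie close together for most genes, and CALR is highest at about 2947 TPM over all libraries.

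In the classical and lectin group all 4 tested genes had negative fold changes without passing. C1RL, a relative of C1R, was at 0.345 ± 0.120 CPM with PRDM16 and 0.716 ± 0.172 CPM with NC (SD over 3 libraries each), a log2 fold change of -0.94 ± 0.37 (SE) with an adjusted p of 0.265 in edgeR. Its groups did not overlap, at 4 to 19 counts per library, and it too is listed at 2 places. Those of MASP2 did not overlap either, again with PRDM16 below, as held for 8.70% of all genes tested. C4A and C4B, near-identical copies whose reads cannot be fully separated, were at 0.506 ± 0.161 and 0.393 ± 0.337 CPM with PRDM16, against 0.780 ± 0.246 and 0.752 ± 0.477 CPM with NC. MASP2, a protease of the lectin pathway, was at 1.67 ± 0.0578 CPM with PRDM16 and 2.07 ± 0.436 CPM with NC. CFD, the protease that cleaves factor B, was at 0.737 ± 0.132 CPM with PRDM16 and 0.688 ± 0.0470 CPM with NC.

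Of the terminal components, C5 was at 10.0 ± 0.860 CPM with PRDM16 and 11.6 ± 2.23 CPM with NC (SD over 3 libraries each), a log2 fold change of -0.22 ± 0.15 (SE) with an adjusted p of 0.425 in edgeR. C7 was at 0.610 ± 0.274 CPM with PRDM16 and 0.342 ± 0.121 CPM with NC, and C8G at 1.10 ± 0.116 CPM with PRDM16 and 0.884 ± 0.199 CPM with NC. Among the other regulators 5 were tested, and SUSD4, CSMD3, C4BPB and THBD had the smallest p, with edgeR adjusted p of 0.611 or above. Among the receptors 7 were tested. C5AR1, a receptor of the C5a fragment, was at 0.408 ± 0.187 CPM with PRDM16 and 0.656 ± 0.159 CPM with NC (-0.80 ± 0.38, edgeR adjusted p = 0.289). CALR, C1QBP and ITGB2 were at 2202 ± 68.5, 141 ± 14.4 and 38.1 ± 2.45 CPM with PRDM16, against 1911 ± 199, 124 ± 13.5 and 33.3 ± 5.36 CPM with NC. Calreticulin and C1QBP bind C1q but have their main roles in the endoplasmic reticulum and mitochondria.

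The genes that build the GPI anchor of CD55 and CD59 were nearly all expressed. Of 29, 28 were tested, and edgeR, DESeq2 and limma-voom each called 0. Fold changes were positive for 18 and negative for 10, with a median of 0.12. An unadjusted p under 0.05 was found for 6 (21.4%) in edgeR, as for 6 in each of the other tools. Over all 15053 genes this held for 2540 (16.9%) in edgeR, 2278 in DESeq2 and 2146 in limma-voom. The edgeR count of anchor genes was 11 without NC library 1, 4 without NC library 2 and 6 with the length and GC trend removed. Over all genes these fits had 4272 of 15517, 1139 of 15094 and 989 of 15053 under 0.05. PIGQ was at 49.5 ± 3.89 CPM with PRDM16 and 37.7 ± 5.90 CPM with NC (SD over 3 libraries each), a log2 fold change of 0.39 ± 0.13 (SE) with an adjusted p of 0.228 in edgeR. GPAA1, a subunit of the transamidase that attaches the anchor, was at 351 ± 25.1 CPM with PRDM16 and 275 ± 32.9 CPM with NC, and PIGH at 27.6 ± 2.76 CPM with PRDM16 and 21.8 ± 1.20 CPM with NC. PGAP1, which remodels the anchor after attachment, was at 23.1 ± 1.14 CPM with PRDM16 and 30.2 ± 7.12 CPM with NC (-0.39 ± 0.14, edgeR adjusted p = 0.248).

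Receptors and transcription factors known to drive complement genes were likewise not called. All 27 were tested, and edgeR, DESeq2 and limma-voom each called 0. Fold changes were positive for 13 and negative for 14, with a median of -0.01, and 5 (18.5%) had an unadjusted p under 0.05 in edgeR, 7 in DESeq2 and 4 in limma-voom, against 2540 (16.9%), 2278 and 2146 of all 15053 genes. In edgeR this count was 14 without NC library 1, 1 without NC library 2 and 0 with the length and GC trend removed. Of all genes in these fits, 4272 of 15517, 1139 of 15094 and 989 of 15053 were under 0.05. CEBPD, an acute phase transcription factor, was at 5.99 ± 0.318 CPM with PRDM16 and 4.29 ± 0.521 CPM with NC (SD over 3 libraries each), a log2 fold change of 0.49 ± 0.17 (SE) with an adjusted p of 0.248 in edgeR. The NF-kappaB subunits RELB and RELA were at 85.4 ± 6.58 and 200.4 ± 6.31 CPM with PRDM16, against 69.4 ± 13.1 and 167 ± 22.5 CPM with NC. LIFR, a cytokine receptor, was at 3.28 ± 0.477 CPM with PRDM16 and 4.53 ± 1.40 CPM with NC.

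The 3 genes whose log2 CPM ran closest to C3 over the 6 libraries, among 9581 genes with a mean of at least 10 CPM, were ALOX12 (Pearson r = 0.958), KIF24 (0.937) and C1QTNF1 (0.921). Those closest to CD59 were ATP5PD (0.994), PARK7 (0.993) and RPS3A (0.992). These are the highest of many values over 6 libraries that share their depth and composition, and are given as a description.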

How the data were processed

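RNA was captured on oligo(dT) beads, fragmented and primed with random hexamers, per the labels' protocols, and the submitters' processing notes name the build hg38. No aligner, counting tool or strand setting is named in the sources used here. Each deposited table holds raw counts, TPM and FPKM per gene listing, per the file headers; the TPM are the authors' values. The FPKM values deposited by the authors served to recheck the totals after the broken lines of 7 genes were rejoined. Groups and replicate numbers came from the titles.

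Counts of the 38648 listings were summed to 34644 names (2008 with several listings; TPM were summed too) and tested with edgeR 4.0.16 in R 4.3.3 (robust quasi-likelihood test, TMM factors, default low-count filter at 10 counts and 15 in total) over the 15053 genes that passed. The script was tested on simulated data. DESeq2 1.42.0 and limma 3.58.1 were alternatives. Standard errors were derived from each fold change with its F value, and approximate 95% intervals from these errors with a normal multiplier. Such intervals are narrower than the degrees of freedom of the edgeR test would give. That of CD46 ended just below 0 (-0.0011) although its unadjusted edgeR p was 0.057. For the trend alternative, the deviations of log2 CPM were regressed on splines (5 degrees of freedom) of length and GC content (GENCODE transcripts, 92.1% of tested genes). These intervals include the variation between libraries, while the floors (3 counts) cover counting error only. No pair of libraries agreed within sampling noise (chi-square per degree of freedom 8.95 to 62.1).

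The members, the lists and the tests were chosen with earlier results of these data known. The text names PRDM16, all 9 members, up to 4 genes with the smallest p per list, and the 3 genes most alike to C3 and to CD59; other genes were named by role after their values were seen. Some genes of the lists are counted but not reported by name here.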

Additional observations from a re-analysis of the deposited data

How the results depend on the processing

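All 9 complement genes stayed uncalled in each of the 15 alternatives (135 values), as did the 3 other lists. The sign turned in 6 of these values: C1R was 0.033 with limma-voom and 1.32 without NC library 1, C3 was -5.6e-04 with the length and GC trend removed together with the replicate block and -0.16 without PRDM16 library 3, and CD55 was 0.069 with the trend removed, with or without the block. With single libraries left out, C1R ranged from -1.33 to 1.32, C3 from -0.16 to 0.25, CFI from -0.72 to -0.08, CD46 from -0.38 (adjusted p = 0.101) to -0.08, CFB from -0.30 to -0.07, C1S from -0.33 to -0.08, SERPING1 from 0.04 to 0.26, CD59 from 0.02 to 0.19 and CD55 from -0.10 to -0.01. SERPING1 was 0.0077 with the trend removed and the block. With each listing tested on its own, the CFB value was that of the chromosome listing, at 9 to 18 counts per library. The haplotype listing with most CFB counts was not called either (edgeR adjusted p = 0.303). The causes were not tested.

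Over all genes, 18 passed, 14 higher and 4 lower with PRDM16. The count was 37 with DESeq2, 4 with limma-voom, 5 with plain library totals (all higher), 11 with RLE size factors, 114 with no count filter, 10 with each listing tested on its own, 5 with the trend removed and 5 with the trend removed and the replicate block, and 13 to 148 with 1 library left out (13 without NC library 2, 148 without NC library 3, of which 56 were higher and 92 lower, and 126 without PRDM16 library 3). With the replicate block alone it was 22, with 11 higher and 11 lower. Same-numbered libraries of the groups did not deviate together in a constant direction (correlations 0.143, -0.14 and -0.203 for numbers 1 to 3). Differently numbered pairs ran from -0.147 to 0.289. With 3 values from deviations centred within each group, this cannot decide whether same-numbered libraries share more than a number. For genes with few counts, such as CFI with 9 to 33 per library, depth limits what can be seen.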
